A study of Mus musculus with 12 samples.

Results

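Mice whose pulmonary fibrosis was acutely exacerbated (AE-PF) were compared with and without ND-RHL, a liposome that delivers nintedanib together with dexamethasone. The comparison used lung RNA from 4 ND-RHL libraries and 4 AE-PF libraries out of 12 in the series, and a gene entered it when its FPKM was at least 1 in 4 or more of these 8 libraries. FPKM divides a gene's fragment count by its length and by the library total. That rule kept 14568 of 35599 genes. Both groups had received bleomycin and lipopolysaccharide (LPS), and only the ND-RHL mice also received the liposomes, which carry hyaluronic acid and RGD peptides on their surface. Another group of 4 saline libraries is used below only to show each gene's level in unchallenged lung. The saline mice are labelled as controls, and no strain, sex, age, dose, route or day of collection is given in the sources used here. No group with empty liposomes or with a single or free drug is among these samples, so the contributions of carrier, nintedanib and dexamethasone cannot be told apart. The labels do not say whether replicates were separate animals, and the p-values measure only the spread between these samples.

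Bleomycin injures the alveolar epithelium and leads to fibroblast activation, collagen deposition and scarring, and LPS, a bacterial cell wall component, sets off acute inflammation. Nintedanib blocks the receptor tyrosine kinases for PDGF, FGF and VEGF, growth factors that drive fibroblast proliferation and vessel growth. Dexamethasone activates the glucocorticoid receptor, a transcription factor that switches on genes such as Fkbp5 and Tsc22d3 and restrains NF-kB and AP-1, the factors behind many cytokine genes. Hyaluronic acid is the ligand of CD44, and RGD is the short peptide in fibronectin that alpha-v and other integrins bind.

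All 12 libraries carried the defining transcripts of lung, with Sftpc at 969 to 3945 FPKM in AE-PF and 7899 to 14290 in ND-RHL libraries, and Pecam1 at 80.6 to 159 over the series. The 8 libraries held 16152379 to 19396924 fragments counted to genes. Transcripts of stratified squamous epithelium and skeletal muscle were high in the second AE-PF and the fourth ND-RHL library: Krt13, a keratin of mouth and oesophagus, was at 899 and 2948 there and at most 0.271 in the other 10. The summed FPKM of the skeletal muscle markers was 975 and 2236 in these libraries and 5.19 to 31.2 in the other 6 compared. AE-PF libraries 3 and 4 were the most alike of all pairs within groups. Their mean chi-square per gene was 3.31, against 9.05 to 74.2 in other pairs, and their median 0.78, against 1.01 to 5.11. This mean is more than sampling noise gives, but that cannot show that the libraries come from separate animals. They were counted as 2 samples. The first principal component explained 54.8% of the variance, and on it the AE-PF libraries lay at -42.1, -48.1, -16.3 and -14.7, and the ND-RHL libraries between 23.3 and 39.1. AE-PF libraries 1 and 2 thus lay farther from the treated lungs than libraries 3 and 4.

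**Figure D1:**
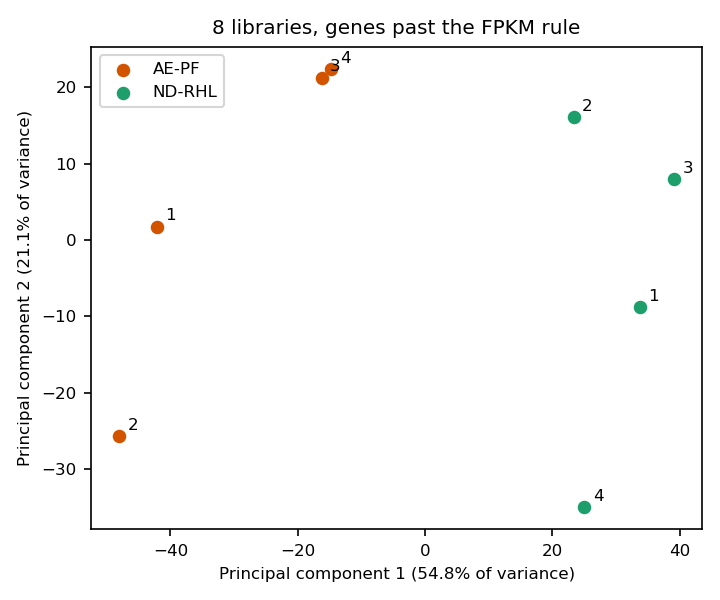
Scores of the 4 AE-PF (orange) and 4 ND-RHL (green) libraries on the first 2 principal components of log2(FPKM + 1) over the 14568 genes tested, with replicate numbers beside the points and the share of variance on each axis. The groups lie on opposite sides of 0 on the first component, and AE-PF 2 (-25.7) and ND-RHL 4 (-35.0) lie lowest on the second.

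The transcriptome of treated lung differed widely from that of untreated AE-PF lung. Matrix, monocyte-macrophage and chemokine genes were lower, and markers of alveolar type 2, club and ciliated epithelium and of cytotoxic lymphocytes were higher. Of 14568 genes tested with limma, 4906 (33.7%) passed an adjusted p of 0.05, with 2717 (18.7%) higher and 2189 (15.0%) lower in ND-RHL lung. At least 2-fold changes, on the log2(FPKM + 1) scale used for every fold and log2 change here and which understates the change of low genes, were found for 363 of the higher and 334 of the lower genes, and at least 4-fold changes for 48 and 60. The share of called genes that were higher was 55.4%, but 33.1% after libraries had been scaled to equal FPKM totals and 45.2% after quantile normalisation. These scalings moved the median log2 change of all genes from 0.05 to -0.05 and -0.01. No called gene turned its sign in any alternative that tested it. Without AE-PF library 1, the number called was 3037, with 1574 higher, and without ND-RHL library 3 the number higher was 1748. In 5406 genes (37.1%) all 4 values of one group lay on one side of all 4 of the other. Every count of list members below is to be read beside the shares of all genes, 18.7% higher and 15.0% lower.

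**Figure D2:**
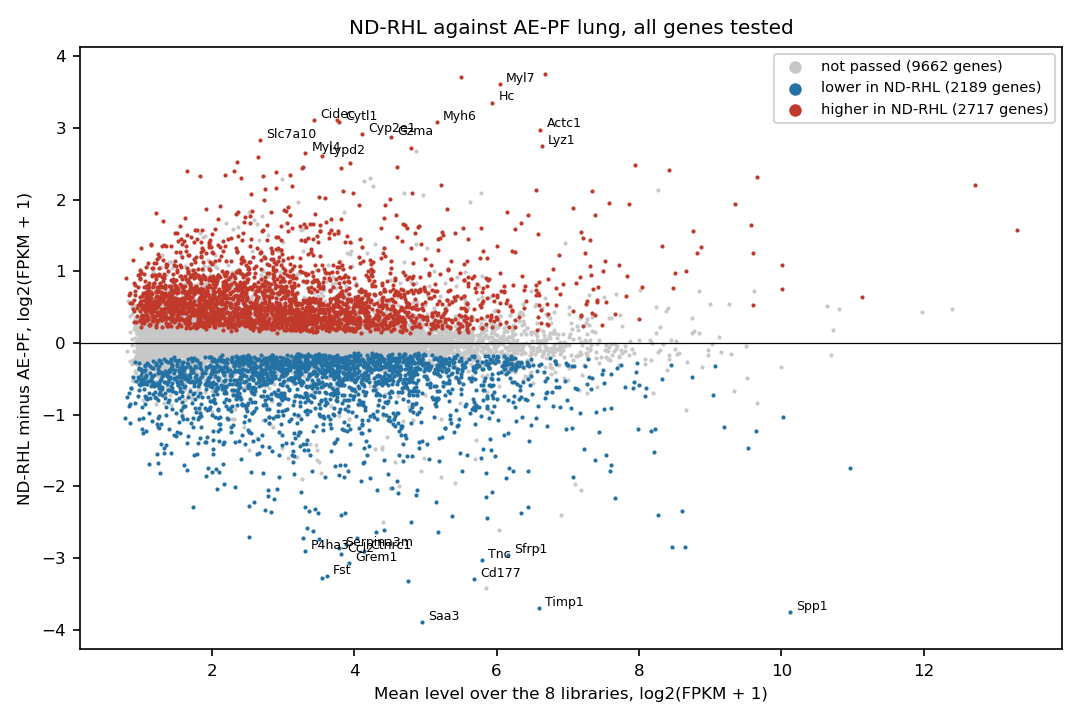
Difference between ND-RHL and AE-PF lung on the log2(FPKM + 1) scale against the mean level of the 8 libraries on the same scale, 1 point per gene, for the 14568 genes tested. Red and blue points are the 2717 higher and 2189 lower genes past an adjusted p of 0.05, and the labels name the 12 largest rises and falls chosen by the naming rule, from Myl7 at 3.62 to Saa3 at -3.89.

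Genes at higher levels were called more often. Genes were placed by the larger of their 2 group means. Among those below 5 FPKM 27.1% of 5302 passed, and among the 420 genes at 100 FPKM or more 47.1% passed. Set beside the saline lungs, 964 of the 2717 genes called higher had an ND-RHL mean within the range of the 4 saline libraries, 1009 were still below it and 744 were above it. Of the 2189 genes called lower, 677 were within the saline range, 1125 were still above it and 387 were below it. The genes that fell at least 2-fold most often remained above saline lung, at 206 of 334.

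The genes of scar tissue gave some of the deepest falls. Timp1 (ENSMUSG00000001131, chrX:20870166-20874735, GRCm38) encodes an inhibitor of matrix-degrading proteases. Its FPKM was 226, 201, 132 and 150.1 in AE-PF libraries 1 to 4 and 11.0, 22.0, 8.30 and 11.5 in ND-RHL libraries 1 to 4 (log2 change -3.70 ± 0.29 SE, 13.02-fold lower, adjusted p = 0.000618). Every treated lung thus lay far below every untreated one, and above the 6.20 to 7.49 of saline lung. The naming rule took only genes without overlap as its 12 largest rises and falls. Separation of the groups in these genes, Timp1 included, is therefore no finding of its own. Genes named here and below for the lowest p of their list were chosen in a way that favours separation too. Over all genes tested, 37.1% did not overlap. Spp1 (ENSMUSG00000029304, chr5:104435118-104441050) encodes osteopontin, a secreted protein of profibrotic macrophages, and stood at 2776, 2546, 1413 and 1310 FPKM in AE-PF and 95.3, 541, 49.1 and 149 in ND-RHL lung (log2 change -3.76 ± 0.67, adjusted p = 0.00558). The groups did not overlap, as the naming rule required. ND-RHL library 2 kept several times the Spp1 of the other treated libraries, and without it the log2 change was -4.40.

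Fibrillar collagen and its partners followed. Of 29 collagen chain genes tested, 20 fell and 1 rose (2 rose without AE-PF library 3), with a median log2 change of -1.19 beside 0.05 over all genes. Col1a1 (ENSMUSG00000001506, chr11:94936224-94953042), the main chain of type I collagen, was at 645, 691, 366 and 367 FPKM in AE-PF and 109, 98.5, 78.9 and 89.0 in ND-RHL lung (log2 change -2.40 ± 0.24, adjusted p = 0.000895). Untreated libraries 1 and 2 held far more Col1a1 than libraries 3 and 4, whereas the treated libraries lay close together, with library 3 inside the saline range of 60.6 to 81.6 and the others above it. Other chains that fell included Col5a1 (-2.44), Col5a3 (-2.40) and Col3a1 (-1.52), given with their log2 changes. Col8a1, a short-chain collagen of vessels, went from 12.9 ± 2.33 to 2.90 ± 0.206 (SD, n = 4 each; adjusted p = 0.000601), and its treated mean lay below the saline range of 3.07 to 5.12. Col16a1, a collagen that associates with fibrils, went from 22.4 ± 3.34 to 10.0 ± 0.858 (adjusted p = 0.000913). Not every chain fell. The 1 riser was Col4a6 (0.67), and the alveolar basement membrane chains Col4a3 (0.17), Col4a4 (0.11) and Col4a5 (0.07) did not pass, while Col4a1 and Col4a2, the chains of most basement membranes, fell by 1.22 and 1.21 on the log2 scale. Chains named for where they stand in this order, and the few members that went against their list below, were picked after their values had been seen.

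Matrix glycoproteins and matricellular proteins, the adhesive and regulatory part of the matrix, fell in 21 of 34 members and rose in 5 (median -1.07). Fn1, which encodes fibronectin, was at 879, 873, 525 and 518 FPKM in AE-PF and 91.1, 142, 64.1 and 91.7 in ND-RHL lung (log2 change -2.84 ± 0.28, adjusted p = 0.000873). Tnc, an adhesion-modulating protein of wounds, was at 108, 119.8, 82.5 and 77.0 and 10.7, 21.1, 5.17 and 11.0 (log2 change -3.03 ± 0.35, adjusted p = 0.00128). In both genes the highest treated library was library 2, as for Spp1, and no treated library reached the untreated range. For Tnc the naming rule required this separation. Cthrc1, a secreted protein of collagen-producing fibroblasts, went from 30.1 ± 15.1 to 2.99 ± 1.501, and Fmod, a proteoglycan that binds collagen fibrils, from 46.0 ± 5.02 to 7.72 ± 3.13 (SD, n = 4; adjusted p = 0.00174 and 0.000831). Emilin1, an elastic fibre glycoprotein, fell from 55.2 ± 6.63 to 24.8 ± 2.73 (adjusted p = 0.000725). The 5 that rose were Tnxb, Fbln1, Npnt, Thbs3 and Ltbp4. Tnxb, a tenascin of resting connective tissue, went from 3.79, 4.00, 4.09 and 4.51 to 14.4, 10.2, 12.4 and 14.3 FPKM (log2 change 1.43 ± 0.11, adjusted p = 0.000618). Its treated values did not overlap the untreated ones, and all stayed below the saline 16.6 to 18.4.

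The enzymes that modify and crosslink collagen fell in 18 of 21 members (median -0.80), and 1 rose, Pcolce2 (2.21). P4ha3, a prolyl hydroxylase subunit, was at 20.4, 22.1, 11.2 and 11.9 FPKM in AE-PF and 1.07, 2.61, 0.625 and 1.03 in ND-RHL lung (log2 change -2.90 ± 0.30, adjusted p = 0.000926). P3h1, a prolyl 3-hydroxylase, went from 23.2 ± 2.47 to 9.17 ± 1.19, and Fkbp10, a collagen chaperone, from 31.6 ± 8.88 to 9.31 ± 0.901 (adjusted p = 0.000625 and 0.0011). The collagen and elastin crosslinking enzymes Lox (-2.29), Loxl2 (-1.83), Loxl3 (-1.32), Loxl4 (-1.06) and Loxl1 (-0.79) all passed as lower. Of 30 proteases and protease inhibitors 23 fell and 1, the membrane metalloprotease gene Mmp15 (1.75), rose (median -0.98), with 24 and 2 without ND-RHL library 2. Adamts4, a proteoglycan-cleaving protease, was at 13.7, 9.81, 9.91 and 10.0 FPKM in AE-PF and 1.302, 1.87, 0.922 and 1.21 in ND-RHL lung (log2 change -2.35 ± 0.15, adjusted p = 0.000601). Serpine2, an inhibitor of thrombin and plasminogen activators, fell from 93.2 ± 21.0 to 20.1 ± 3.86 (adjusted p = 0.000618). Both genes separated the groups, which naming by low p favours, with library 1 the highest of the untreated lungs.

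**Figure D3:**
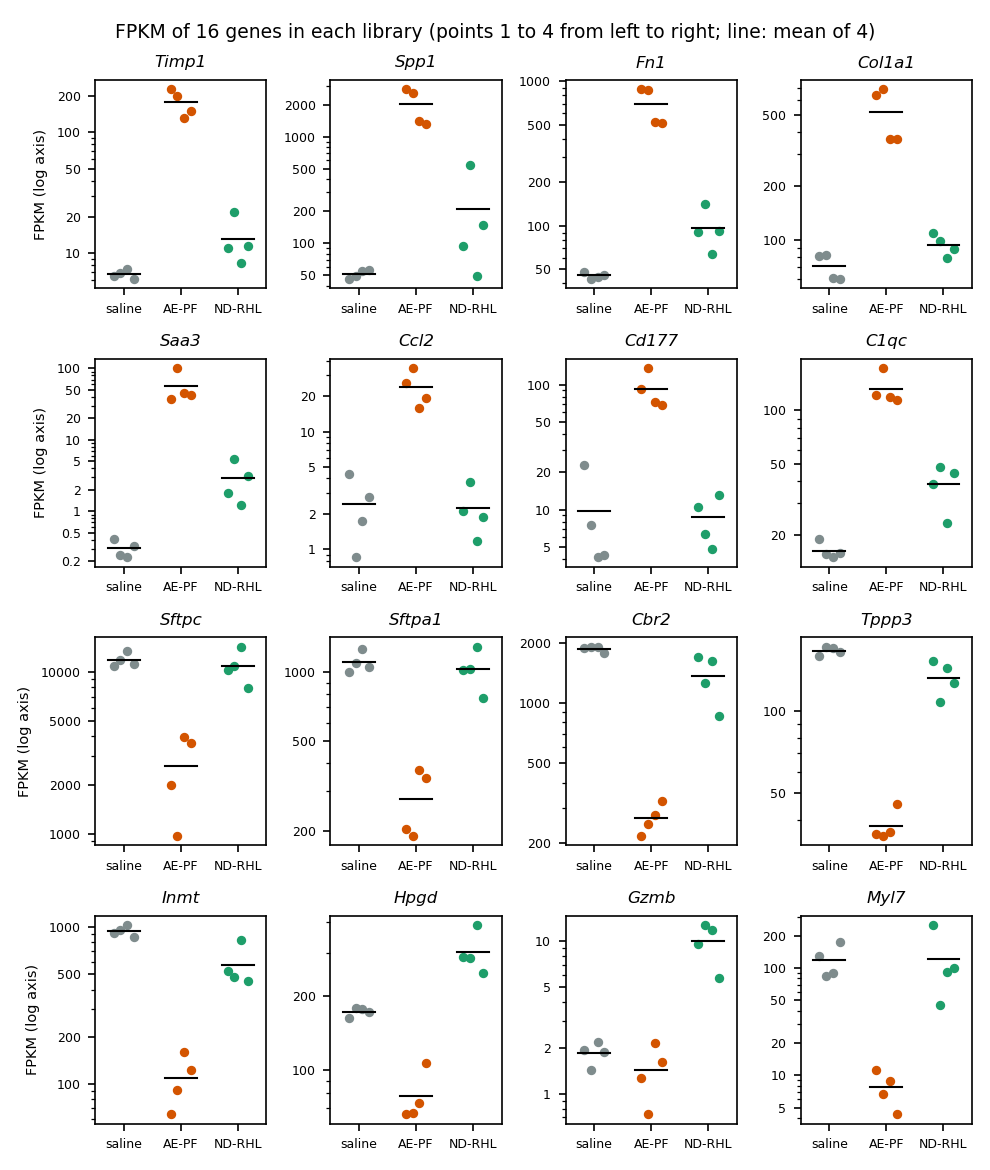
FPKM of 16 genes in each of the 4 saline, 4 AE-PF and 4 ND-RHL libraries on log axes, with points 1 to 4 from left to right and a line at each group's mean. Matrix and inflammatory genes such as Timp1 (132 to 226 in AE-PF, 8.30 to 22.0 in ND-RHL) fell, and epithelial, fibroblast and cytotoxic genes such as Sftpa1 (190.1 to 370.0, 767 to 1297) rose.

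In the TGF-beta, activin and BMP family, the secreted inhibitors and activin itself moved most. Across 36 members tested 13 fell and 6 rose (median -0.15). The share that fell was above the 15.0% of all genes, and the share that rose was below the 18.7% of all genes. Inhba, the activin A subunit, was at 8.01, 11.1, 7.58 and 7.37 FPKM in AE-PF and 1.69, 0.853, 0.629 and 0.783 in ND-RHL lung (log2 change -2.27 ± 0.18, adjusted p = 0.000618). Fst, follistatin, which binds and neutralises activin, was at 25.2, 28.3, 15.3 and 15.7 and 1.26, 1.89, 0.618 and 1.43 (log2 change -3.25 ± 0.24, adjusted p = 0.000618). Ligand and inhibitor both lay lower in all 4 treated libraries, which the naming rule required of Fst. The Fst mean was below the saline range of 1.48 to 2.19. Grem1, a BMP antagonist, went from 28.2, 39.8, 21.5 and 13.6 to 4.30, 1.09, 0.373 and 4.16 FPKM (log2 change -3.07 ± 0.50, adjusted p = 0.00396), with treated libraries 1 and 4 above libraries 2 and 3. Among the ligands of TGF-beta, Tgfb1 (-0.37) and Tgfb2 (-0.40) passed as lower and Tgfb3 (-0.24) did not pass. Of the receptors, Tgfbr1 (-0.43) and Tgfbr2 (-0.74) fell. The members that rose included genes of the BMP branch and its vascular receptors: Bmp6 (1.54), Smad6 (0.92), Eng (0.67), Smad9 (0.56) and Bmpr2 (0.49). Bmp6, a BMP ligand, was at 13.9, 10.8, 14.0 and 16.4 FPKM in AE-PF and 40.4, 39.4, 54.2 and 34.9 in ND-RHL lung (adjusted p = 0.000923), and its mean stayed below the saline range of 48.1 to 69.7. Sfrp1, a secreted Wnt inhibitor that is also a marker of activated fibroblasts, fell from 168, 139, 105 and 91.8 to 15.1, 19.6, 10.2 and 16 FPKM (log2 change -2.96 ± 0.23, adjusted p = 0.000618).

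The kinases that nintedanib blocks, and their ligands, moved in both directions: of 26 tested 8 were lower and 7 higher (median -0.02). Over all genes 15.0% were lower and 18.7% higher. Among PDGF receptors, Pdgfrb was at 76.7, 70.6, 71.5 and 67.8 FPKM in AE-PF and 40.0, 50.4, 48.5 and 33.0 in ND-RHL lung (log2 change -0.74 ± 0.13, adjusted p = 0.00496). Pdgfra was at 58.0, 71.5, 42.9 and 44.9 and 32.6, 36.4, 42.7 and 31.4 (log2 change -0.57 ± 0.17, adjusted p = 0.0361). Pdgfrb separated the groups widely, whereas the highest treated and the lowest untreated Pdgfra values, 42.7 and 42.9, almost met. The Pdgfra call was lost without AE-PF library 1 (0.0953) or 2 (0.0557), or ND-RHL library 1 (0.0865), 2 (0.0676) or 4 (0.0756), as adjusted p. For the FGF receptors, Fgfr1 fell from 18.3 ± 5.32 to 8.96 ± 1.08 (log2 change -0.92 ± 0.18, adjusted p = 0.00843), whereas Fgfr2, an epithelial receptor, was at 4.06, 3.85, 5.44 and 5.74 FPKM in AE-PF and 15.2, 14.6, 20.8 and 13.4 in ND-RHL lung (log2 change 1.56 ± 0.16, adjusted p = 0.000923). All treated libraries lay above all untreated ones in Fgfr2, and their mean was inside the saline range. For the VEGF receptors, Kdr, the main endothelial receptor, rose from 24.3, 15.1, 30.9 and 31.2 to 47.9, 52.95, 66.3 and 40.6 FPKM (log2 change 1.04 ± 0.24, adjusted p = 0.0141). Flt1 did not pass, at 19.7 ± 2.96 and 19.7 ± 3.26 (adjusted p = 0.983), and both groups lay below the saline 27.5 to 34.7. Flt4, the lymphatic receptor, passed as lower (-0.46). Of the ligands Pgf fell from 9.15 ± 2.12 to 2.71 ± 0.718 and Fgf2 from 11.9 ± 1.76 to 5.16 ± 0.334 (adjusted p = 0.00156 and 0.000831).

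Genes induced by glucocorticoids did not rise as a list in lung treated with the dexamethasone liposome. Of 27 tested 9 were lower and 2 higher (median -0.14), or 6 and 4 without AE-PF library 2. Among all genes 15.0% were lower and 18.7% higher. Fkbp5 (ENSMUSG00000024222, chr17:28399094-28517527), a co-chaperone of the glucocorticoid receptor, was at 30.2, 42.8, 12.0 and 11.3 FPKM in AE-PF and 3.37, 3.56, 2.04 and 4.01 in ND-RHL lung (log2 change -2.37 ± 0.42, adjusted p = 0.00525). Untreated libraries 1 and 2 were far above libraries 3 and 4, all 4 were above the treated libraries, and the treated values lay near the saline 2.19 to 2.71. Zbtb16, a zinc finger gene that glucocorticoids induce, showed the same split, with 18.4, 18.1, 4.24 and 3.62 in AE-PF and 2.66, 2.77, 1.83 and 2.01 in ND-RHL lung (log2 change -1.56 ± 0.50, adjusted p = 0.0434). Its adjusted p was 0.106 without AE-PF library 1, 0.0903 without library 2 and 0.0736 to 0.101 without any 1 of the ND-RHL libraries. Tsc22d3, which encodes the anti-inflammatory protein GILZ, was at 59.4, 70.3, 41.9 and 39.9 FPKM in AE-PF and 34.9, 36.9, 57.2 and 68.3 in ND-RHL lung (adjusted p = 0.759). Per1, a clock gene with glucocorticoid response elements, was at 27.0, 28.9, 17.9 and 16.8 and 11.9, 13.1, 23.2 and 27.6 (adjusted p = 0.475). In both of these genes treated libraries 3 and 4 were high and libraries 1 and 2 low, so the groups overlapped. Dusp1, a MAP kinase phosphatase, did not pass, at 57.5 ± 11.5 and 71.1 ± 13.5 (adjusted p = 0.225). Nr3c1, the glucocorticoid receptor gene itself, rose from 23.3 ± 2.504 to 30.9 ± 2.46 (adjusted p = 0.0132; 0.0563 with equal FPKM totals). Anxa1 and Cdkn1a of this list, which also answer to injury, fell by 0.93 and 0.89 on the log2 scale (adjusted p = 0.00549 and 0.00566).

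**Figure D4:**
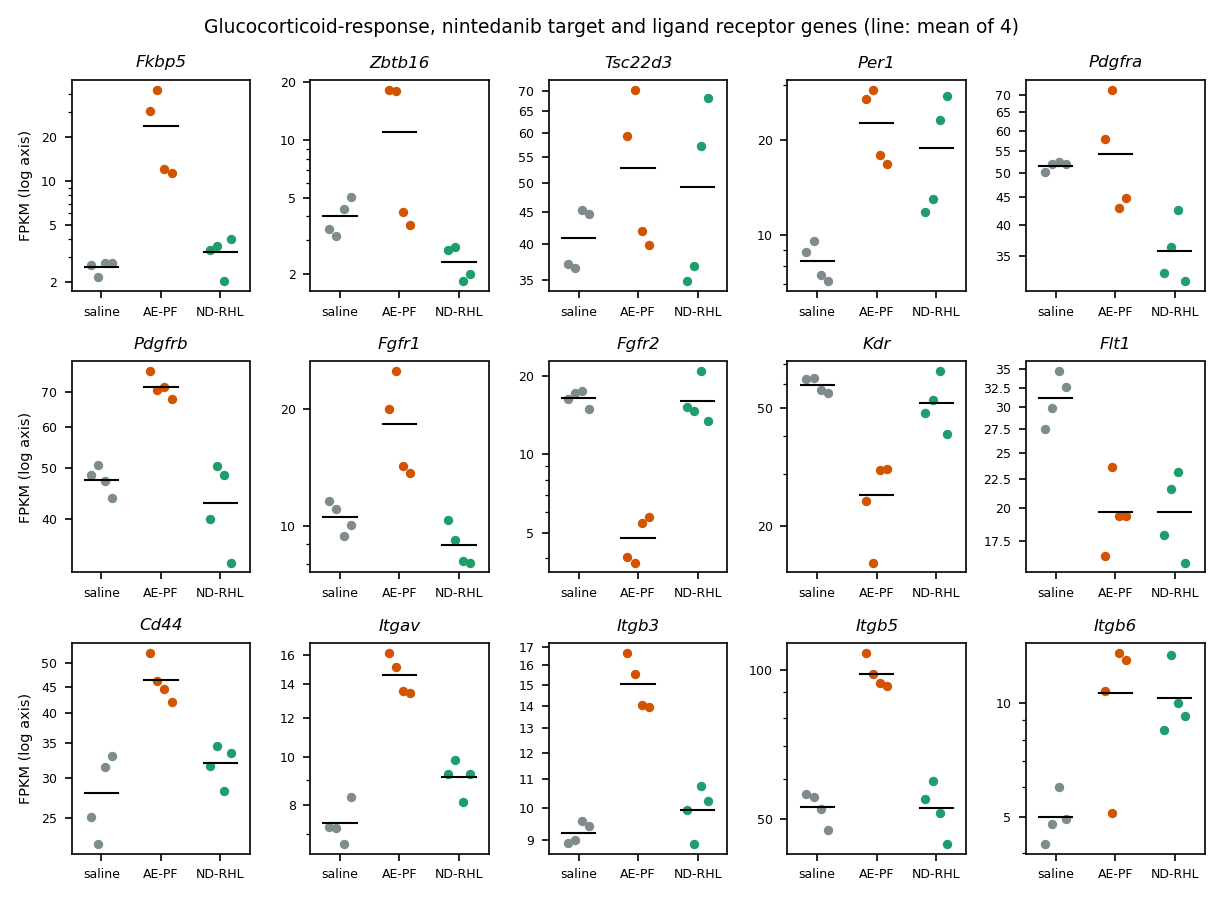
FPKM of 15 glucocorticoid-response, nintedanib target and ligand receptor genes in each library of the 3 groups, on log axes that differ between panels and do not start at 0, with lines at the group means. Fkbp5 (11.3 to 42.8 in AE-PF, 2.04 to 4.01 in ND-RHL) and Itgb5 (92.7 to 108, 44.4 to 59.6) fell, Fgfr2 and Kdr rose, and Tsc22d3, Per1, Flt1 and Itgb6 overlapped between groups.

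Main receptors for the 2 surface ligands of the liposome, Cd44 and alpha-v integrins, were lower in treated lung. Of 19 such receptors and hyaluronan genes tested 10 fell and 2 rose (median -0.50). Cd44, the hyaluronan receptor, was at 52.5, 46.2, 44.6 and 42.1 FPKM in AE-PF and 31.6, 34.5, 28.3 and 33.5 in ND-RHL lung (log2 change -0.52 ± 0.09, adjusted p = 0.00422). Among the integrins that bind RGD, Itgb5 was at 108, 98.0, 94.2 and 92.7 and 54.8, 59.6, 51.4 and 44.4 (log2 change -0.90 ± 0.10, adjusted p = 0.00107), and both genes separated the groups. Itgav fell from 14.6 ± 1.31 to 9.11 ± 0.728, Itgb3 from 15.1 ± 1.301 to 9.95 ± 0.796 and Itgb1 from 374 ± 46.8 to 263 ± 20.8 (adjusted p = 0.00169, 0.00234 and 0.0113). Itgb6, the epithelial partner of Itgav, overlapped, at 10.7, 5.12, 13.6 and 12.98 and 8.50, 13.4, 10.0 and 9.22 (adjusted p = 0.966). Both risers are integrin alpha chains, Itga8 of resident fibroblasts and Itga2b of platelets. Has2, the hyaluronan synthase, was at 3.01, 2.83, 4.88 and 3.86 FPKM in AE-PF and 0.648, 0.482, 0.182 and 0.339 in ND-RHL lung (log2 change -1.71 ± 0.16, adjusted p = 0.000816). It met the minimum level only through the AE-PF libraries. Cemip, a protein that degrades hyaluronan, fell as well (-2.71).

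Many cytokine and chemokine genes fell, and an acute-phase gene had the largest fall of all genes tested. Saa3 (ENSMUSG00000040026, chr7:46711998-46715700), the serum amyloid A form made in inflamed tissue, was at 37.7, 101, 45.0 and 43.0 FPKM in AE-PF and 1.81, 5.37, 1.23 and 3.18 in ND-RHL lung (14.8-fold lower, log2 change -3.89 ± 0.40, adjusted p = 0.000926). The treated values were far below the untreated ones and still above the saline 0.228 to 0.407. Separation of the groups was a condition of the naming rule for Saa3. Of 30 cytokines and chemokines tested 18 fell and 4 rose (median -0.74), and 13 to 19 fell when any 1 library was left out. The monocyte chemokine Ccl2 was at 26.1, 34.7, 15.9 and 19.1 and 2.12, 3.75, 1.18 and 1.87 (log2 change -2.95 ± 0.29, adjusted p = 0.000872), and Ccl12, a second ligand of its receptor, at 17.1, 21.8, 13.3 and 17.1 and 2.66, 2.88, 0.960 and 1.61 (log2 change -2.63 ± 0.23, adjusted p = 0.000671). Neither overlapped, which the naming rule required of Ccl2, and both treated means were within the saline range. Cxcl12, a stromal chemokine, fell from 78.6 ± 4.66 to 37.8 ± 4.03 (adjusted p = 0.000618). The 4 that rose were Ccl5 (1.79), a chemokine of cytotoxic lymphocytes, Il33 (1.64) and Cxcl15 (1.34), which alveolar epithelium makes, and Cx3cl1 (0.80). Il1b, the interleukin 1 beta gene, overlapped, at 7.36, 5.51, 19.9 and 18.1 and 13.2, 16.1, 23.5 and 13.1 (adjusted p = 0.372). Il6 did not reach the minimum level, at 0.775 to 1.31 in AE-PF and 0.142 to 0.484 in ND-RHL libraries. Among 19 acute-phase and antimicrobial genes 4 fell and 3 rose, near the 15.0% and 18.7% of all genes, and 4 fell and 5 rose without ND-RHL library 2. Ptx3, a soluble pattern recognition protein, was at 4.75, 6.19, 4.47 and 4.18 and 0.532, 0.946, 0.423 and 0.6002 (log2 change -1.86 ± 0.13, adjusted p = 0.000618). It met the minimum level only through the AE-PF libraries. The rises in this list were those of Lyz1 (2.75), Chil1 (2.12) and Itih4 (1.93).

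Promoter windows of 3 falling genes of inflammation and injury are printed to show where letters of the C/EBP, NF-kB and AP-1 motifs, bound by factors of inflammation and stress, lie in them. Each runs from 250 bases before to 50 bases after the start in RefSeq GRCm38.p6, 5′ to 3′ on the gene's strand, and capitals mark motif matches. Saa3 (chr7:46715627-46715926, minus strand) holds a C/EBP match (TTGCNNAA or its reverse complement) that begins 99 bases before the start. Ptx3 (chr3:66219637-66219936, plus strand) holds a C/EBP match 57 bases before the start and, over the start itself, a pair of overlapping NF-kB matches. Plaur (chr7:24462233-24462532, plus strand), the urokinase receptor gene, which fell from 31.4 ± 4.45 to 15.6 ± 2.65 (adjusted p = 0.00263), holds an AP-1 match (TGANTCA) 69 bases and a C/EBP match 59 bases before the start. All 3 windows shown hold matches, whereas the window of Timp1, also searched, held no C/EBP, NF-kB or AP-1 match.
Saa3: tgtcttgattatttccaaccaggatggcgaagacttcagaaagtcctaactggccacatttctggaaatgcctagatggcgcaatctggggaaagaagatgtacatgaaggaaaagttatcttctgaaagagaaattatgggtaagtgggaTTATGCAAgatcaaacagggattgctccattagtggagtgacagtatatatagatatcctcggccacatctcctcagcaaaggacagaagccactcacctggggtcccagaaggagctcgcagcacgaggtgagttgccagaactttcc
Ptx3: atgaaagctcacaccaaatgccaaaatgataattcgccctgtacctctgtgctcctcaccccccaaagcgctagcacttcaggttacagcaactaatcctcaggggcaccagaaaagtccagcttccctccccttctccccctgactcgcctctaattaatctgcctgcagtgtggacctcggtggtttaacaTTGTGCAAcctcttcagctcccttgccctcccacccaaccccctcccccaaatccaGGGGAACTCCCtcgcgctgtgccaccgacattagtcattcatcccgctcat
Plaur: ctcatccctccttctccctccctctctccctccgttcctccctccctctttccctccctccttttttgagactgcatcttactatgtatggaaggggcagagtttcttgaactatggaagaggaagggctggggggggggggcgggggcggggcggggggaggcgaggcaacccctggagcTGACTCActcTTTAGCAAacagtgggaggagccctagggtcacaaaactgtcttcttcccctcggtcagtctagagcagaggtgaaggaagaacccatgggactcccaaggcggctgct
On both strands, AP-1 letters were found in 33 of 261 promoters of genes lower by at least 2-fold (12.64%), in 9.00% of the 311 promoters of genes higher by at least 2-fold, in 5.14% of those of tested genes that were not called and in 7.81% of all 32851 promoters of this length. NF-kB letters were found in 14.94%, 11.58%, 10.31% and 8.46%, in the same order, and C/EBP letters in 11.88%, 14.15%, 8.25% and 10.80%. For genes called lower by under 2-fold the shares were 5.49% (AP-1), 11.47% (NF-kB) and 7.74% (C/EBP). For genes called higher by under 2-fold they were 4.84%, 10.38% and 11.3%. A glucocorticoid response element was found in 4 of the 261 (1.53%) and in 0 of the 311. It was found in 0.27% of promoters of tested genes that were not called and in 0.47% of all promoters. Counts of 4 and 0 are too small for a comparison. Promoter entries were matched by symbol for 10476 of the 14568 genes. A match is a run of letters and no test was made of these shares.

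Complement genes fell in 11 of 20 members and rose in 4 (median -0.46). The share that rose was near the 18.7% of all genes, whereas 15.0% of all genes fell. The 3 chains of C1q, which macrophages make, all fell: C1qc was at 123, 173, 119 and 115 FPKM in AE-PF and 38.4, 48.2, 23.2 and 44.1 in ND-RHL lung (log2 change -1.78 ± 0.23, adjusted p = 0.00181), and C1qb went from 297 ± 36.4 to 89.1 ± 29.4. Serping1, the C1 inhibitor gene, fell from 330.2 ± 19.8 to 214 ± 14.3 (adjusted p = 0.00174). The risers were Hc, C7 (0.83), Cd55 (0.68) and Cfd, whose values overlapped and whose call was lost in fits given below. Hc (ENSMUSG00000026874, chr2:34983331-35061438), which encodes complement C5 and is also a gene of alveolar type 2 cells, was at 8.37, 1.69, 21.6 and 19.3 FPKM in AE-PF and 101, 105, 147 and 78.7 in ND-RHL lung (log2 change 3.35 ± 0.63, adjusted p = 0.00669). AE-PF library 2 was the lowest, and without it the log2 change was 2.71. Treated libraries were all above untreated ones, as the naming rule required, and all but library 3 lay below the saline 115 to 145.

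Markers of monocytes and recruited macrophages were lower in 21 of 28 members tested and higher in 1, Ly6c2 (0.47), with a median of -1.18. In whole tissue, fewer cells of a type and less RNA per cell cannot be told apart. Adgre1, which encodes F4/80, was at 43.3, 41.6, 39.5 and 37.6 FPKM in AE-PF and 17.9, 23.6, 14.2 and 19.0 in ND-RHL lung (log2 change -1.10 ± 0.13, adjusted p = 0.00154). Csf1r, the receptor for the macrophage growth factor, was at 55.6, 49.5, 50.7 and 51.2 and 33.9, 38.7, 33.0 and 35.6 (log2 change -0.54 ± 0.07, adjusted p = 0.00149). Neither gene overlapped, which naming by low p favours, and both treated means stayed above the saline ranges of 7.22 to 10.7 and 24.5 to 27.8. Fcgr1, a high-affinity Fc receptor, fell from 12.0 ± 0.903 to 4.40 ± 1.14 (adjusted p = 0.0011). Ccr2, the receptor of classical monocytes, did not pass (-0.17, adjusted p = 0.672). The list shares Spp1, Itgam, Lgals3 and the C1q chains with other lists. Of 21 alveolar macrophage markers 3 were higher and 3 lower (median -0.02), no more than the shares of all genes, 18.7% and 15.0%. Without AE-PF library 2 the numbers were 4 and 5. Ear1, a ribonuclease of alveolar macrophages, rose from 2.90, 1.82, 3.16 and 2.73 to 7.67, 7.89, 19.6 and 8.90 FPKM (log2 change 1.63 ± 0.28, adjusted p = 0.00472), with treated library 3 far above the rest. The fallers Ctsk, Lpl and Mrc1 are also genes of other macrophages or cells.

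Neutrophil markers gave 6 lower and 0 higher of 18, with a median of -0.03. Without ND-RHL library 2 there were 5 lower and 3 higher, and without ND-RHL library 4 there were 7 lower and 1 higher. Cd177, a surface protein of neutrophils, was at 92.0, 136, 72.0 and 69.0 FPKM in AE-PF and 10.6, 6.39, 4.81 and 12.98 in ND-RHL lung (log2 change -3.30 ± 0.32, adjusted p = 0.000831). Its groups did not overlap, as the naming rule required. Lrg1, a secreted glycoprotein that injured endothelium also makes, fell from 174 ± 19.4 to 75.9 ± 13.1, and Itgam, an integrin shared with monocytes, from 9.17 ± 2.20 to 3.97 ± 0.450 (adjusted p = 0.00123 and 0.00262). Defining neutrophil genes did not pass: S100a8 (0.30, adjusted p = 0.428), S100a9 (0.63), Csf3r (0.28) and Cxcr2 (0.26).

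Cytotoxic lymphocyte genes rose almost throughout. Of 16 natural killer and cytotoxic markers tested 13 were higher and 0 lower, with a median of 1.39, and Gzma is among the 12 largest rises that the naming rule picked. Gzmb (ENSMUSG00000015437, chr14:56258838-56262260), a protease that kills target cells, was at 1.27, 0.732, 2.14 and 1.62 FPKM in AE-PF and 9.64, 12.7, 11.8 and 5.72 in ND-RHL lung (log2 change 2.15 ± 0.26, adjusted p = 0.00146). All treated libraries exceeded all untreated ones and the saline 1.43 to 2.18. Gzma, another granule protease, was at 2.28, 0.770, 10.4 and 9.56 and 31.4, 45.4, 51.5 and 24.2 (log2 change 2.87 ± 0.60, adjusted p = 0.0099), and Prf1, the pore-forming protein, at 0.887, 0.471, 1.62 and 1.60 and 4.02, 4.67, 6.44 and 3.40 (log2 change 1.41 ± 0.23, adjusted p = 0.00394). In each of these 3 genes, AE-PF libraries 1 and 2 were lower than libraries 3 and 4, and library 2 was the lowest of the untreated lungs. Tbx21, the transcription factor T-bet, rose from 0.497 ± 0.372 to 2.02 ± 0.173 (adjusted p = 0.00397). It met the minimum level only through the ND-RHL libraries, so its separation of the groups is no finding of its own. The summed FPKM of the list was 14.2 to 69.6 in AE-PF, 139 to 184 in ND-RHL and 45.4 to 59.9 in saline libraries. Cma1, a chymase that mast cells also make, and Ccl5 are in this list and in another.

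T cell markers rose in 4 of 20 and fell in 0 (median 0.66), a share near the 18.7% of all genes that were higher. They included Cd8b1, Cd8a and Cd28. Cd8b1, a chain of the CD8 co-receptor, was at 1.98, 1.04, 4.30 and 3.88 FPKM in AE-PF and 6.78, 9.10, 6.88 and 12.9 in ND-RHL lung (log2 change 1.44 ± 0.33, adjusted p = 0.013). Cd8a rose from 2.49 ± 0.975 to 5.00 ± 1.28 (adjusted p = 0.0332), and this call was lost without AE-PF library 1 (0.0807) or ND-RHL library 2 (0.0705), 3 (0.0651) or 4 (0.0685). With AE-PF 2 and ND-RHL 4 both left out, the T cell list had 3 higher and 3 lower, Ctla4, Il7r and Pdcd1, and a median of 0.13, and without AE-PF library 1 or ND-RHL library 2 or 3 it had 2 higher. Without ND-RHL library 4 alone it had 2 higher and 2 lower, and without AE-PF library 2 alone 3 and 2. Of 22 B and plasma cell markers 9 were higher and 1 lower (median 0.19). Cd79b, part of the B cell receptor, was at 7.39, 4.14, 15.3 and 12.1 FPKM in AE-PF and 29.9, 23.4, 22.7 and 42.2 in ND-RHL lung (log2 change 1.60 ± 0.36, adjusted p = 0.0129), and Pax5, the B cell transcription factor, rose from 1.11 ± 0.664 to 4.04 ± 1.504 (adjusted p = 0.0108). Only 3 of these members passed as higher without AE-PF library 1, and 4 without ND-RHL library 1. Without ND-RHL library 4 there were 6 higher and 3 lower, and without AE-PF library 3 there were 10 higher and 2 lower. Xbp1, the plasma cell and unfolded protein factor, fell from 96.0 ± 15.3 to 62.6 ± 4.14 (adjusted p = 0.00615). Ighg3 and Ighg2b, constant regions of antibodies, had log2 changes of -3.42 and -1.97 and did not pass (adjusted p = 0.0876 and 0.384).

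Interferon-stimulated genes were higher in 5 of 25 members and lower in 0 (median 0.41), a share near the background of 18.7%. The 5 were Gbp3, Ifi44, Cmpk2, Usp18 and Oasl2, and only Gbp3 passed without AE-PF library 1. The number was 3, with 1 lower, without AE-PF library 2, 2 without ND-RHL library 1, 2 or 3, and 3 without ND-RHL library 4. Gbp3, a guanylate-binding protein, was at 7.90, 5.95, 11.9 and 12.9 FPKM in AE-PF and 17.2, 19.7, 18.9 and 18.2 in ND-RHL lung (log2 change 0.92 ± 0.21, adjusted p = 0.0129). Its treated values lay in a narrow band above all untreated and saline values. Ifi44 and Cmpk2 had log2 changes of 0.89 and 0.86. The adjusted p without AE-PF library 1 was 0.0526 for Ifi44 and 0.0749 for Cmpk2, and the Cmpk2 call was also lost without ND-RHL library 1 (0.067), 2 (0.0608) or 3 (0.0571). Of 19 dendritic cell and MHC class II genes 2 rose and 1 fell, both below the shares of all genes, and 0 rose without AE-PF library 1. H2-Ob, an MHC class II modulator of B cells, was at 2.65, 1.26, 6.97 and 6.11 FPKM in AE-PF and 11.6, 11.2, 11.7 and 20.4 in ND-RHL lung (adjusted p = 0.0187; 0.0568 without AE-PF library 1). Clec9a, a receptor of cross-presenting dendritic cells, had a log2 change of 0.92 (adjusted p = 0.0197; 0.0531 without AE-PF library 1 and 0.0565 without ND-RHL library 3). Batf3, a transcription factor of the same cells, fell by 0.62 (adjusted p = 0.016).

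Alveolar type 2 cells make surfactant and serve as stem cells of the alveolus, and their transcripts were far more abundant in treated lung. Of 24 markers tested 22 were higher and 0 lower, with a median log2 change of 1.27. Sftpc (ENSMUSG00000022097, chr14:70520949-70524081), surfactant protein C, was at 2011, 969, 3945 and 3616 FPKM in AE-PF and 10330, 10900, 14290 and 7899 in ND-RHL lung (log2 change 2.21 ± 0.47, adjusted p = 0.0102). AE-PF library 2 was the lowest, and every treated library lay above every untreated one. With no filter on low values, where 34539 genes were tested, the adjusted p of Sftpc was 0.306. Sftpa1 (ENSMUSG00000021789, chr14:41131782-41136452), surfactant protein A, was at 203, 190.1, 370.0 and 343 and 1024, 1036, 1297 and 767 (log2 change 1.93 ± 0.26, adjusted p = 0.00206). The fatty acid synthase gene Fasn, which supplies surfactant lipid, rose from 22.0 ± 6.75 to 68.4 ± 19.2, and Ppp1r14c, a phosphatase inhibitor, from 8.39 ± 3.56 to 35.1 ± 6.60 (adjusted p = 0.00401 and 0.0022). Nkx2-1, the transcription factor of lung epithelium, rose too (1.14). The summed level of the list was 4321 to 11130 FPKM in AE-PF, 15780 to 25240 in ND-RHL and 19300 to 23900 in saline libraries.

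The promoter of Sftpa1 (chr14:41131538-41131837, plus strand, RefSeq GRCm38.p6) is shown because Nkx2-1 and a surfactant gene rose together. It holds the NKX2-1 core CAAGTG in reverse complement 202 and 14 bases before the start, and a TATA box (TATAAA) 30 bases before it, all in capitals.
Sftpa1: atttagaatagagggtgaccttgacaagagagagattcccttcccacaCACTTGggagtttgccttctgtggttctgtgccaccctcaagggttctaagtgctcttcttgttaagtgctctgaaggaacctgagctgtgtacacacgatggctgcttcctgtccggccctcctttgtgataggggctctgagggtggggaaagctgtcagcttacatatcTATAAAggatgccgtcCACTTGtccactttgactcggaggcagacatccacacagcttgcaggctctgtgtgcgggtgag
CAAGTG was found on either strand in 12.22% of promoters of genes higher, and 11.88% of those lower, by at least 2-fold. The share was 11.09% for tested genes that were not called and 13.56% for all promoters. The higher set thus lay between these backgrounds. For genes called with changes under 2-fold the shares were 13.34% (higher) and 9.22% (lower), and no test was made of these shares.

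Alveolar type 1 cells, the thin gas exchange surface, had 2 of 19 markers higher and 0 lower (median 0.39), below the 18.7% of all genes that were higher. Without AE-PF library 2 there were 2 higher and 2 lower (median 0.19), and 1 was higher without AE-PF library 1 or ND-RHL library 2 or 3. Cav1, the caveolin gene, was at 173, 177, 206 and 211 FPKM in AE-PF and 312, 354, 383 and 277 in ND-RHL lung (log2 change 0.78 ± 0.12, adjusted p = 0.00336). Hopx rose from 85.2 ± 24.2 to 141 ± 10.8 (adjusted p = 0.0233), and lost its call without AE-PF library 1 (0.0613) or ND-RHL library 2 (0.0524) or 3 (0.0634). Rtkn2 was at 8.31, 3.05, 19.2 and 20.5 and 27.6, 32.1, 30.9 and 20.5, groups that only just missed overlapping, and did not pass (adjusted p = 0.0739; 0.0431 without AE-PF library 4). Genes of the transitional state between type 2 and type 1 cells were lower in 7 of 17 members and higher in 0 (median -0.50). Tnfrsf12a, the TWEAK receptor, was at 48.4, 43.4, 38.8 and 42.8 and 14.1, 18.3, 15.1 and 17.8 (log2 change -1.36 ± 0.10, adjusted p = 0.000618), and Ndrg1, a stress-responsive gene, fell from 9.60 ± 1.19 to 4.31 ± 0.822 (adjusted p = 0.00165). Krt8 (-0.34, adjusted p = 0.191), the keratin that names this state, did not pass.

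Markers of both main airway cell types were higher. Of 23 club and secretory cell markers 15 were higher and 1, the stress gene Nupr1 (-0.56), was lower, with a median of 1.46. None was lower without AE-PF library 1 or 2 or ND-RHL library 2, 3 or 4. Cbr2, a carbonyl reductase of club cells, was at 217, 248, 276 and 322 FPKM in AE-PF and 1692, 1254, 1623 and 857 in ND-RHL lung (log2 change 2.31 ± 0.23, adjusted p = 0.000913). Scgb1a1, the defining club cell secretoglobin, was at 5230, 4570, 4417 and 5663 and 15980, 15280, 21580 and 9021 (adjusted p = 0.0108), and in both genes treated library 4 was the lowest of its group. Gstm1 and Aldh1a7, detoxifying enzymes, each rose by 1.46 on the log2 scale (adjusted p = 0.000816 and 0.000831). The summed level of the list was 5523 to 7032 FPKM in AE-PF, 12260 to 25720 in ND-RHL and 33430 to 43360 in saline libraries, so treated lungs lay between the other groups. Lyz1 and Lypd2, whose cell source was not tested, are among the 12 largest rises that the naming rule picked. Lyz1 was at 10.9, 8.24, 58.9 and 49.6 and 185, 126, 218 and 131 (log2 change 2.75 ± 0.62, adjusted p = 0.0129). Reads that match both Lyz1 and its near copy Lyz2 make that value uncertain.

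Of 22 ciliated cell markers 20 were higher and 0 lower (median 0.80). Tppp3, a tubulin-binding protein, was at 35.3, 34.9, 36.0 and 45.7 FPKM in AE-PF and 153, 108, 144 and 127 in ND-RHL lung (log2 change 1.78 ± 0.13, adjusted p = 0.000618). Ak7, an adenylate kinase of cilia, was at 3.98, 3.10, 3.64 and 4.53 and 13.1, 6.25, 8.24 and 6.87 (log2 change 0.96 ± 0.20, adjusted p = 0.0104). The groups were apart in both genes, which naming by low p favours, and treated library 1 was the highest. Foxj1, the master regulator of motile cilia, passed with a smaller change (0.51, adjusted p = 0.0458). The number of ciliated markers that passed was 8 without AE-PF library 1 or ND-RHL library 3, 12 without AE-PF library 2 and 13 without AE-PF library 3, with 0 lower in each.

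**Figure D5:**
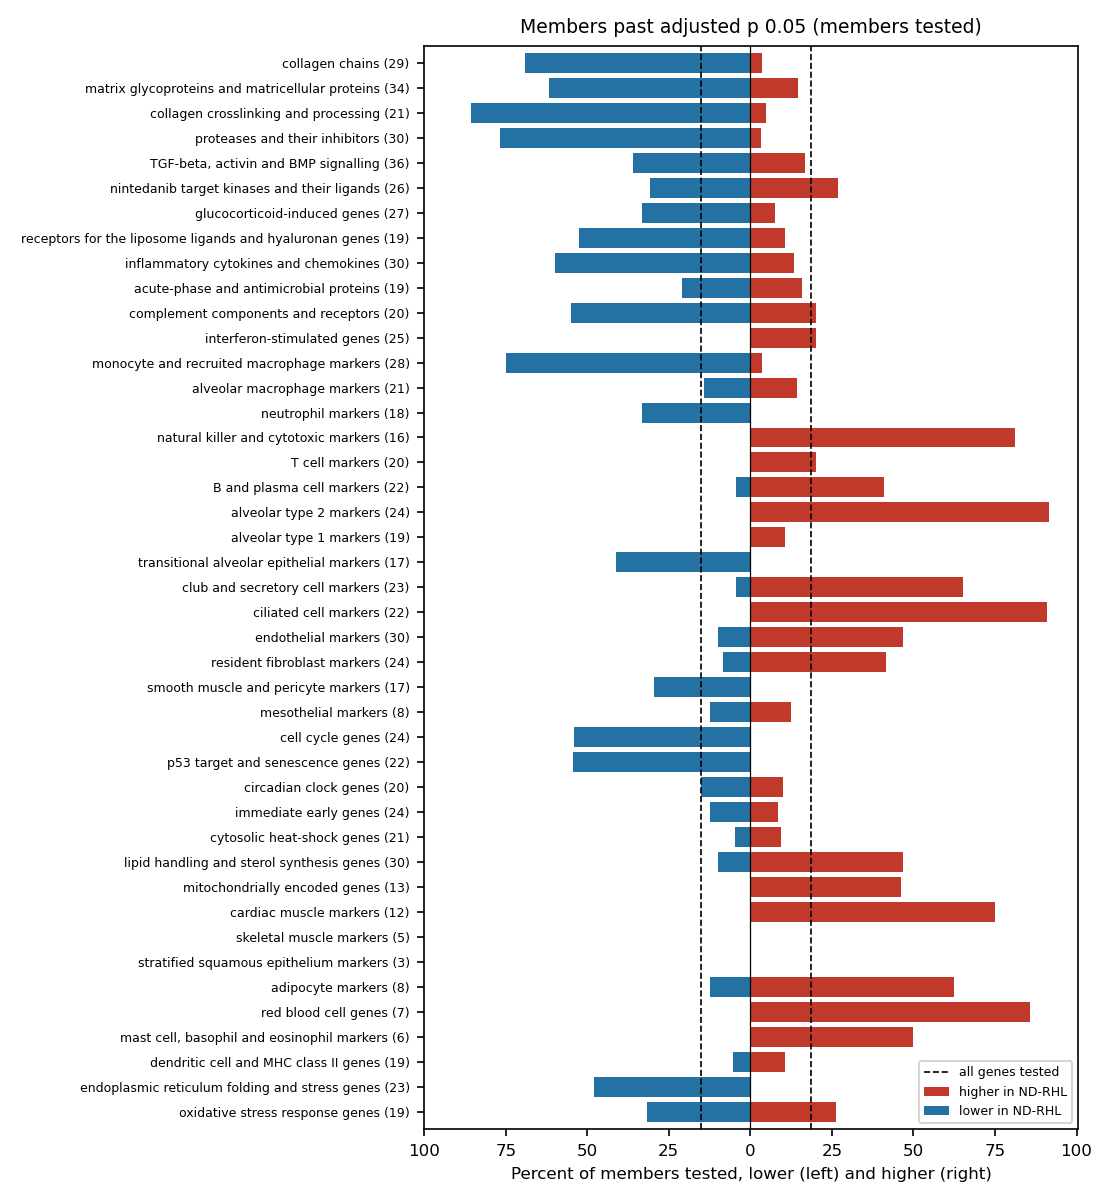
Percent of the tested members of each of the 43 gene lists that passed an adjusted p of 0.05 as lower (blue, to the left) or higher (red, to the right) in ND-RHL lung, with the number tested in brackets. Dashed lines mark the shares over all genes, 15.0% lower and 18.7% higher, and matrix and macrophage lists extend left while alveolar type 2, ciliated, club, cytotoxic and cardiac lists extend right.

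Endothelial markers were higher in 14 of 30 members and lower in 3 (median 0.49; 10 and 3 with equal FPKM totals). Hpgd, an enzyme that degrades prostaglandins, was at 65.7, 66.5, 72.8 and 106 FPKM in AE-PF and 289.5, 284, 388 and 247 in ND-RHL lung (log2 change 1.95 ± 0.19, adjusted p = 0.000831), and all treated libraries exceeded the saline 162 to 178. Ednrb, an endothelin receptor of capillaries, was at 7.24, 6.85, 7.00 and 8.06 and 21.2, 20.5, 26.6 and 16.8 (log2 change 1.41 ± 0.12, adjusted p = 0.000671), below the saline 26.3 to 30.3 in all but treated library 3. The 3 that fell were Ackr3, Prox1 (-0.59), the lymphatic transcription factor, and Vwf (-0.39). Ackr3, a decoy receptor for Cxcl12, fell from 36.2 ± 6.19 to 12.9 ± 1.91 (adjusted p = 0.000831).

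Of 24 resident fibroblast markers 10 were higher and 2 lower (median 0.38; 7 and 2 with equal FPKM totals). Without AE-PF library 1 or 4 or ND-RHL library 1, 3 or 4 the number lower was 1. Inmt, a methyltransferase of alveolar fibroblasts, was at 63.9, 92.1, 161 and 123 FPKM in AE-PF and 526, 482, 829 and 452 in ND-RHL lung (log2 change 2.41 ± 0.30, adjusted p = 0.00165). Slc7a10, an amino acid transporter, was at 0.195, 0.0524, 0.868 and 1.39 and 10.5, 7.92, 13.5 and 8.58 (log2 change 2.83 ± 0.28, adjusted p = 0.000863). Both separated the groups, which the naming rule required of Slc7a10. Both treated means remained below the saline ranges of 867 to 1028 and 14.3 to 15.2. Tcf21, the transcription factor of lipofibroblasts, rose as well (1.19), and Itga8 went from 23.9 ± 2.91 to 47.7 ± 8.33 (adjusted p = 0.00253). The 2 that fell were Cdh11 (-0.69) and Gpc3 (-0.35). Smooth muscle and pericyte markers gave 5 lower and 0 higher of 17 (median -0.01), but 3 lower and 0 higher without AE-PF library 3, and 4 lower and 4 higher without ND-RHL library 2. Cspg4, the pericyte proteoglycan NG2, fell from 7.44 ± 0.689 to 3.67 ± 0.717 (adjusted p = 0.00185). Postn, periostin, fell from 76.3 ± 16.6 to 46.5 ± 5.97 (adjusted p = 0.0142). Acta2, the actin of myofibroblasts and smooth muscle, overlapped widely, at 218, 348, 146 and 189 and 363, 91.0, 175 and 154 (adjusted p = 0.599). Its highest value among the treated lungs was in library 1, which also had the highest cardiac marker sum, 853, whose part in this result was not tested. Of 8 mesothelial markers 1 fell and 1 rose, near the shares of all genes, or 1 and 2 without AE-PF library 4. With all 8 libraries, Msln (-1.62, adjusted p = 0.0054) fell and Rspo1 (0.45, adjusted p = 0.0113) rose.

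Proliferation and damage genes were lower. Of 24 cell cycle genes 13 fell and 0 rose (median -0.48). Aurka, a mitotic kinase, was at 4.39, 3.67, 3.71 and 3.60 FPKM in AE-PF and 1.93, 2.37, 1.92 and 2.41 in ND-RHL lung (log2 change -0.62 ± 0.09, adjusted p = 0.00222), and Rrm1, a subunit of ribonucleotide reductase, at 7.03, 6.22, 6.60 and 6.93 and 4.49, 4.81, 3.95 and 4.74 (log2 change -0.49 ± 0.07, adjusted p = 0.00239). Neither gene overlapped, which naming by low p favours. Tyms, thymidylate synthase, fell from 2.42 ± 0.0941 to 1.46 ± 0.124 (adjusted p = 0.0022). The number that fell was 22 when AE-PF 2 and ND-RHL 4 were both left out, and 21 without AE-PF library 2 alone, with Stmn1 then higher. It was 19 with equal FPKM totals and 20 with quantile normalisation, but 7 without AE-PF library 1, 8 without ND-RHL library 1 and 7 without ND-RHL library 3. Of 22 p53 target and senescence genes 12 fell and 0 rose (median -0.35). Cdkn2a, the senescence gene for p16 and p19, was at 2.86, 3.07, 2.87 and 2.69 FPKM in AE-PF and 0.750, 1.11, 0.352 and 0.294 in ND-RHL lung (log2 change -1.28 ± 0.16, adjusted p = 0.00153). Zmat3, a p53 target that regulates splicing, fell from 6.85 ± 0.296 to 4.38 ± 0.425 (adjusted p = 0.00165). Both separated the groups, which naming by low p favours. Mdm2 (-0.12) and Ccng1 (-0.18), widely used p53 targets, did not pass.

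Stress programmes moved unevenly. Of 23 endoplasmic reticulum folding and stress genes 11 fell and 0 rose (median -0.22; 15 with equal FPKM totals and 7 with quantile normalisation). The number was 6 without AE-PF library 1 or ND-RHL library 3, and 7, with Ddit3 higher, without AE-PF library 3. P4hb, protein disulphide isomerase, which is also a subunit of collagen prolyl hydroxylase, fell from 288 ± 31.6 to 197 ± 10.2 (adjusted p = 0.00484), and Manf, a secreted chaperone-like factor, from 16.3 ± 0.848 to 12.0 ± 1.16 (adjusted p = 0.00609). Among 19 oxidative stress response genes 5 rose and 6 fell, but 3 and 3 without AE-PF library 1, 6 and 3 without AE-PF library 4, and 4 and 3 without ND-RHL library 1 or 3. Cat, catalase, was at 41.0, 32.7, 50.1 and 53.5 FPKM in AE-PF and 113, 97.1, 128 and 91.3 in ND-RHL lung (log2 change 1.27 ± 0.17, adjusted p = 0.00193). Sod1, superoxide dismutase 1, rose from 35.0 ± 3.40 to 55.9 ± 5.14, whereas Srxn1, a target of the stress factor NRF2, fell from 22.3 ± 2.02 to 14.4 ± 1.27 (adjusted p = 0.00206 and 0.00238). Of 21 cytosolic heat-shock genes 2 rose and 1 fell, both below the shares of all genes. The genes called were Hspa4l (0.50), Cryab (0.54) and Hspa8 (-0.41). The Cryab call was lost without AE-PF library 1 (0.0758) or ND-RHL library 2 (0.0543), 3 (0.0603) or 4 (0.0542). Hspa8 lost its call without AE-PF library 1 (0.0553), 3 (0.0632) or 4 (0.0639), or ND-RHL library 1 (0.0686), 2 (0.0605) or 3 (0.0716). Both AE-PF and ND-RHL libraries were far below the saline 626 to 778 FPKM of Hspa8.

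Of 30 lipid handling and sterol synthesis genes 14 rose and 3 fell (median 0.31). Insig1, the sterol sensor of the endoplasmic reticulum, was at 23.7, 18.2, 22.2 and 21.7 FPKM in AE-PF and 36.0, 37.8, 36.4 and 32.7 in ND-RHL lung (log2 change 0.71 ± 0.09, adjusted p = 0.00145). The 3 that fell, Msr1 (-2.07), Lpl (-1.08) and Abca1 (-0.90), are genes of lipid-laden macrophages, among other cells, and Msr1, a scavenger receptor, was at 15.2, 19.8, 10.7 and 11.6 and 2.58, 4.05, 1.39 and 2.69 (adjusted p = 0.00154). Of 24 immediate early genes 2 rose and 3 fell, both below the shares of all genes. The numbers moved with single libraries, to 4 and 2 without AE-PF library 3, 1 and 5 without ND-RHL library 2, 1 and 4 without AE-PF library 2, 1 and 3 without AE-PF library 1, and 1 and 2 without ND-RHL library 3. Socs3, a feedback inhibitor of cytokine signalling, was at 51.0, 52.3, 48.6 and 52.6 FPKM in AE-PF and 17.7, 25.4, 15.9 and 21.1 in ND-RHL lung (log2 change -1.33 ± 0.13, adjusted p = 0.000852), and Myc, a growth-promoting transcription factor, fell from 13.4 ± 3.93 to 4.83 ± 2.52 (adjusted p = 0.0112). Egr2 (-1.40) fell too, and Jund (0.37) and Nr4a1 (1.502) rose. Clock genes gave 2 higher and 3 lower of 20, no more than the shares of all genes. The numbers were 5 and 3 without AE-PF library 2, and 1 and 2 without AE-PF library 1. In the comparison of all 8 libraries, Bhlhe40 (-1.08), Nfil3 (-0.79) and Cry1 (-0.51) were lower and Nr1d1 (0.68) and Cry2 (0.44) higher. The hour of collection is unknown from the labels.

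Many of the largest rises came from genes of fat and of heart muscle cells, which also line the pulmonary veins inside the mouse lung. Myl7, the atrial myosin light chain, was at 11.2, 6.66, 8.81 and 4.31 FPKM in AE-PF and 251, 45.0, 92.0 and 101 in ND-RHL lung (log2 change 3.62 ± 0.49, adjusted p = 0.002), and Actc1, cardiac actin, at 23.9, 13.4, 18.2 and 20.3 and 230.1, 64.3, 140.5 and 264 (log2 change 2.98 ± 0.42, adjusted p = 0.0023). The groups did not overlap, as the naming rule required of both genes. The treated values were spread widely around the saline 85.0 to 174 of Myl7. Of 12 cardiac muscle markers 9 were higher and 0 lower (median 2.47), with 6 to 10 higher when any 1 library was left out. Their summed FPKM was 42.8 to 133 in AE-PF, 164 to 853 in ND-RHL and 408 to 718 in saline libraries. Myh6 rose by 3.09, or by 3.73 without ND-RHL library 2, its lowest treated library. Of 8 adipocyte markers 5 rose and 1, Lpl, fell (median 2.74), but 1 or 0 rose in the fits with no filter, with AE-PF 2 and ND-RHL 4 left out, with AE-PF 3 and 4 averaged, with limma-voom, and without AE-PF library 1, 3 or 4 or ND-RHL library 1, 3 or 4. Cfd, adipsin, was at 1.59, 16.7, 4.04 and 8.99 and 538, 12.1, 59.7 and 174 (log2 change 3.75 ± 1.11, adjusted p = 0.034), and its values overlapped. Its adjusted p rose to between 0.0537 and 0.0932 without AE-PF library 1, 3 or 4 or ND-RHL library 1, 3 or 4. Cidec, a lipid droplet protein, was at 0.127, 1.49, 0.541 and 0.506 and 41.6, 2.47, 9.92 and 21.6 (log2 change 3.11 ± 0.70, adjusted p = 0.0127; 0.0575 by limma-voom). Cyp2e1, an oxidising enzyme of fat and liver, was at 0.490, 4.08, 1.59 and 2.05 and 75.6, 5.88, 11.5 and 28.2 (log2 change 2.91 ± 0.72, adjusted p = 0.0181; 0.0553 without AE-PF library 1). Fat-related values were highest in treated library 1 and lowest in library 2. The part of vein wall, heart or fat in the tissue taken was not tested.

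Red blood cell genes rose in 6 of 7 members (median 1.35), or in 4 without AE-PF library 1, 3 or 4 or ND-RHL library 2, 3 or 4. Hbb-bt, a beta globin gene, was at 15.0, 49.6, 29.6 and 30.1 FPKM in AE-PF and 73.8, 93.7, 105 and 163 in ND-RHL lung (log2 change 1.83 ± 0.36, adjusted p = 0.00775), and near-identical globin copies make the single genes uncertain. Mitochondrially encoded genes rose in 6 of 13 (median 0.53), with mt-Nd2 at 681, 636, 627 and 679 and 1604, 1047, 1348 and 1652 (log2 change 1.08 ± 0.16, adjusted p = 0.00274). That count was 3 without AE-PF library 3 or without ND-RHL library 1. Treated libraries 1 and 4 were highest for mt-Nd2, and they also had the highest cardiac sums, 853 and 706, whose part in this result was not tested. Mast cell, basophil and eosinophil markers rose in 3 of 6 (median 0.56): Cma1 was at 0.162, 0.406, 0.867 and 0.558 and 6.00, 1.65, 2.55 and 2.79 (log2 change 1.43 ± 0.29, adjusted p = 0.00845), and Cpa3, a mast cell protease, and Gata2, a transcription factor, rose by 0.85 and 0.52. Cma1 met the minimum level only through the ND-RHL libraries. Skeletal muscle and stratified squamous markers gave 0 calls among 5 and 3 tested. With AE-PF 2 and ND-RHL 4 left out, 3 of the skeletal muscle markers, Myl1, Ckm and Mylpf, were higher. Their values followed the libraries, with Mylpf, a fast muscle myosin chain, at 0.774, 60.8, 1.39 and 1.25 in AE-PF and 2.22, 1.69, 2.28 and 186 in ND-RHL lung (adjusted p = 0.735).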

How the data were processed

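RNA of 12 mouse lung libraries, 4 per group, was measured by sequencing. The authors deposited 1 table of FPKM (fragments scaled by gene length and library total) per gene and library. Per the submitters' processing notes, which give no roles or order, the tools were STAR 2.7.9a, Trim Galore 0.6.6, FastQC, Subread 2.0.1 with featureCounts, and DESeq2 1.30.1, with the builds GRCm38 and mm10. Strand and the handling of reads that match several genes are not given in the sources used here, so near-identical genes (globins, Serpina3m and Serpina3n, Lyz1 and Lyz2, antibody segments) and antisense or overlapping genes are uncertain.

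A gene was kept when 4 or more of the 8 libraries reached 1 FPKM (14568 of 35599). A gene high in 1 group only could thus be kept through that group alone. ND-RHL and AE-PF were compared on log2(FPKM + 1) with limma 3.58.1 in R 4.3.3, with a variance trend, and p-values were adjusted by Benjamini-Hochberg over all tested genes, with 0.05 as the threshold. Every adjusted p is from this test unless another setting is named, and ± after a log2 change is its standard error. ± after a mean is the SD of 4 libraries. Whole fragments were recovered from the FPKM steps for an alternative with limma-voom: in all 35599 genes the values came out as whole fragments within 1e-05. The totals were 16152379 to 21667129 fragments over the 12 libraries, and 3 fragments on a gene of 1 kb correspond to 0.1385 to 0.1857 FPKM. The test was tried on simulated data.

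The 43 gene lists, the members and the naming rule were chosen with earlier results of these data known. The rule named the 12 largest rises and falls among protein-coding genes that passed, reached a mean of 5 FPKM in a group and did not overlap, from each list at most 3 genes with the lowest p, and 25 fixed genes. Other genes were named after their values had been seen. Gene positions are those of GENCODE M21 (GRCm38). A few list members are counted but not reported here by name. Same-numbered libraries were not treated as pairs.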

Additional observations from a re-analysis of the deposited data

Results flagged for a closer look

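For each of 159 genes, the highest and lowest of the 4 values in each group were compared with the others by Dixon's criterion at 95%, which chance alone passes in about 1 in 20 groups. Of 318 groups 16 held a library that stood apart, about the share that chance alone gives. Of these, 6 were AE-PF library 2 and 3 were ND-RHL library 4.

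In AE-PF library 2, muscle and squamous genes were far above the others: Mylpf was at 60.81 FPKM (0.775 to 1.39 in the other AE-PF libraries), Ckm at 44.21 (0.133 to 0.142), Myl1 at 11.55 (0.107 to 0.510) and Sbsn, a squamous epithelial gene, at 9.481 (1.35 to 1.64). In the same library C1qc was at 173.0 (115 to 123) and Itga2b at 2.415 (1.73 to 1.83). In ND-RHL library 4, Mylpf was at 185.5 (1.69 to 2.28), Sbsn at 22.54 (1.44 to 1.98) and the B cell gene H2-Ob at 20.4 (11.2 to 11.7).

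In AE-PF library 1, Adamts4 was high at 13.68 (9.81 to 10.0), Aurka was high at 4.387 (3.60 to 3.71) and the fibroblast integrin gene Itga8 was low at 19.58 (24.8 to 25.8). Tppp3 of ciliated cells was at 45.71 in AE-PF library 4 (34.9 to 36.0). In ND-RHL library 3, Ear1 of alveolar macrophages was at 19.63 (7.67 to 8.90), Gata2 at 24.08 (19.2 to 19.6) and Jund at 11.75 (13.9 to 14.2).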

How the results depend on the processing

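No called gene turned its sign in any of the 19 alternatives that tested it. Of 144 named genes that passed, 127 passed in each alternative that tested them. The minimum of 5 FPKM tested only 3200 of the 4906 called genes. Many named genes were chosen for a low p or a large change without overlap, which favours such stability. Leaving out 1 library gave 3037 to 4886 called genes, 1574 to 2641 higher, 1463 to 2245 lower and 576 to 811 changed at least 2-fold, with the lowest number called without AE-PF library 1. Equal FPKM totals gave 1662 higher and 3352 lower, and a minimum of 5 FPKM, which tests fewer genes, gave 1652 higher. Of the genes changed at least 2-fold there were 697, against 1145 with a pseudocount of 0.1 and 1216 by limma-voom on recovered fragments. The cause of these shifts was not tested. Leaving out AE-PF 2 with ND-RHL 4, which earlier results had shown to stand apart, gave 4702 called genes (2444 higher, 2258 lower), and averaging AE-PF libraries 3 and 4, an alternative chosen after seeing the data, gave 4538. With the replicate number as a block, 3504 genes were called (1915 higher, 1589 lower). The deviations of same-numbered libraries correlated at 0.055, -0.33, 0.332 and -0.376. Values of mixed sign cannot show whether the numbers pair the samples, and the labels do not say.

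With 4 libraries a group, genes of 1 kb below 0.1385 FPKM rest on fewer than 3 fragments. No group received empty liposomes, and p-values cover the spread between these libraries only.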

Other observations

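By kind of gene, 150 of 636 long noncoding RNAs tested were higher in ND-RHL lung and 50 lower, with a median log2 change of 0.18, whereas 2459 of 12719 protein-coding genes were higher and 2062 lower. Antibody gene segments gave 4 higher and 9 lower of 153, with a median of -0.38, and T cell receptor segments 3 higher and 0 lower of 28, with a median of 0.67. For both kinds of segment, these shares were below those of all genes tested. The summed FPKM of the B and plasma cell list, in which antibody constant regions weigh most, was 4746, 3482, 1123 and 785 in AE-PF and 1205, 919, 737 and 2764 in ND-RHL libraries, so both groups held libraries with much antibody RNA.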
